A study of Homo sapiens and Mus musculus with 69 samples.

Results

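HOX genes encode homeodomain transcription factors that lie side by side in 4 clusters, *HOXA*, *HOXB*, *HOXC* and *HOXD*. Their order along the chromosome follows the order in which they are used along the body axis, with low paralog numbers toward the head and high numbers toward the tail and the limb tips. Polycomb complexes keep the clusters silent where they are not used, trithorax complexes and retinoic acid open them, and PBX, MEIS and PKNOX proteins bind DNA together with the HOX proteins. Mature cells largely keep the HOX code of the body position they came from. The genes described here are every row of the human table whose symbol is HOX, a cluster letter and a number, and the mouse orthologs in the table of the mouse line KP1. They number 77 of 39017 rows, 39 of 20516 in the human table (11 *HOXA*, 10 *HOXB*, 9 *HOXC* and 9 *HOXD* genes) and 38 of 18501 in the mouse table, in which *Hoxd4* has no row.

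RNA-seq libraries came from small cell lung cancer (SCLC) lines in which Notch signaling was turned on in 2 ways, 3 libraries to a group. H82, H524 and H69 carried the active NOTCH1 intracellular domain (*N1ICD*) under doxycycline (Dox) control and were compared with and without 1 µg/mL Dox and with their parental lines. The H82 *N1ICD* line was also made *REST* KO or *STING* KO by CRISPR-Cas9, each again with and without Dox, and a second H524 line carried Dox-inducible *REST*, the neuronal gene repressor. COR-L88 is a human line and KP1 comes from a mouse SCLC that lacks *Rb1* and *Trp53*. Both received DMSO, 100 nM of the reversible LSD1 inhibitor TAS1440, or TAS1440 with a γ-secretase inhibitor (GSI), which blocks Notch cleavage. The GSI was a different compound in each line, at 2 µM in COR-L88 and at 10 µM (DBZ) in KP1. COR-L88 *STING* KO cells received DMSO or TAS1440. Dox groups of H82 (*REST* intact and *REST* KO), H524 and H69 were harvested after about 56 days, whereas the COR-L88 and KP1 groups were harvested after about 28 days or more. For the H82 *STING* KO groups the methods give only a minimum of 28 days, so the time in culture of these and the intact H82 groups cannot be compared. Knockout lines were single-cell clones, so a knockout and its clone cannot be told apart. By the methods, Dox cultures of the *N1ICD* lines and of the H524 *REST* line consisted of the cells that had attached. Nothing states that the 3 libraries of a group came from separate cultures, so *P* values measure the spread between these libraries, which may be technical.

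All values are log2(RPKM + 1), a level per transcript length, and human and mouse values were normalized separately and are not compared with each other. A difference is between group means of log2(RPKM + 1), given ± SE from a limma fit over every library of the line, and it understates the change of low genes. A gene was called when its Benjamini-Hochberg adjusted *P* over all genes tested was below 0.05 and the difference was at least 1. Genes entered the test when at least 3 libraries of the line reached 1, which 31 HOX genes did in H82, 34 in H524, 36 in H69, 19 in COR-L88 and 17 in KP1. A gene that passed only through the group where it was high had to differ, so the counts below describe the genes tested and not the whole family. Many called genes named below were picked because their groups did not overlap, so a lack of overlap in them follows from that choice. The genes with too little signal were, in H82, *HOXA2*, *HOXA3*, *HOXA4*, *HOXB1*, *HOXB3*, *HOXB8*, *HOXD1* and *HOXD12*, in H524 among others *HOXA13*, *HOXB1*, *HOXD1* and *HOXD12*, and in H69 *HOXB1*, *HOXB8* and *HOXD4*. In COR-L88 they included the 9 *HOXC* genes, *HOXA2*, *HOXA3*, *HOXA4*, *HOXA9*, *HOXA11*, *HOXB1*, *HOXB13*, *HOXD4*, *HOXD12* and *HOXD13*, and in KP1 the 9 *Hoxc* genes, 8 of the 11 *Hoxa* genes and *Hoxb1*, *Hoxb3*, *Hoxd3* and *Hoxd12*. Where every library of a group was listed at 0, no difference from that group is given. Tests of a difference between responses are on the log2(RPKM + 1) scale and are not folds where a response starts from such a group, which is then stated. Each call was also recomputed with each library left out on its own and the same genes tested, an alternative chosen after seeing the data. Where that ended a call, the submitters' library number is given with the difference that remained, and a difference still beyond 1 means that the adjusted *P* had passed 0.05.

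Relative depth, estimated from the smallest steps between values, spanned 0.7 to 1.53 among human libraries and 0.871 to 1.07 in KP1, and the 69 pairs of libraries within groups correlated across genes at *r* = 0.8661 to 0.9944, the lowest in KP1 TAS1440. The *NOTCH1* row rose with Dox in H82 from 1.45, 0.88 and 1.15 to 4.75, 4.26 and 5.56, and reached 8.75, 9.15 and 10.74 in *REST* KO and 5.97, 7.41 and 7.48 in *STING* KO cells. *REST* mRNA in *REST* KO libraries was 3.99 to 4.20 without and 4.95 to 5.89 with Dox, against 4.42 to 4.80 and 6.13 to 6.48 in intact cells, and a frameshift need not lower mRNA, so this row does not check the edit. Parental H82 and H524 carried a neuroendocrine factor that names their subtype, with *NEUROD1* at 13.07 to 13.67 in H82 and 13.07 to 14.27 in H524. The H69 *N1ICD* line without Dox stood apart from its parental line, with *NEUROD1* at 8.69 to 10.61 against 3.32 to 5.03. The leukocyte gene *PTPRC* stayed at or near 0 in every group, at most 0.38, whereas the collagen gene *COL1A1* was 0.34 to 3.57 without and 6.27 to 7.06 with Dox in H82, and 0.74 to 1.17 and 10.97 to 11.09 in H69.

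By GRCh37 coordinates, which match one of the builds named in the submitters' processing notes, *HOXA* lies at chr7:27132612-27239710 (107.1 kb), *HOXB* at chr17:46605888-46806112 (200.2 kb), *HOXC* at chr12:54332615-54449814 (117.2 kb) and *HOXD* at chr2:176957449-177055635 (98.2 kb). In GRCm38 the mouse clusters lie at chr6:52155590-52260880 (*Hoxa*), chr11:96194316-96368256 (*Hoxb*), chr15:102921103-103036852 (*Hoxc*) and chr2:74668310-74765142 (*Hoxd*). The genes are packed closely enough that the annotated spans of 15 human and 8 mouse pairs overlap, among them *HOXA3* with *HOXA4* to *HOXA6*, *HOXA9* with *HOXA10*, *HOXB3* with *HOXB4* to *HOXB6*, *HOXB7* with *HOXB8* and *HOXB9*, *HOXC4* with *HOXC5*, and *HOXD10* with *HOXD11*. Reads of such pairs can be split between rows in ways the files do not show, and the strand setting of the counting is not given in the sources used here, so antisense transcripts cannot be told apart either.

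RefSeq promoter windows (GRCh38.p14) were found for 20 of the 39 human genes, in 27 windows. None was found for any *HOXB* gene but *HOXB1*, nor for any *HOXC* gene but *HOXC4* and *HOXC5*. The shares below thus describe mainly *HOXA* and *HOXD* genes and say little about the other clusters. The stretches shown are the 250 bases before the annotated start, read 5′ to 3′ on the gene's own strand, of genes whose levels are described below. They held 28, 14, 23 and 21 CpG in the order shown, and the median was 19 over the 27 HOX windows and 11 over all windows. *HOXC5* and *HOXC4* share the window listed for *HOXC5*, so it is not particular to *HOXC5*. In GRCh37 the annotated span of *HOXC4* starts upstream, at 54410715 against 54426834 for *HOXC5*. The spans of both genes overlap, and their values are uncertain for that reason. Capitals mark an E-box, CACGTG, the letters that MYC binds, which read the same on both strands. The stretches of *HOXA7* and *HOXC5* hold none.
*HOXA7* (chr7:27156676-27156925, minus strand): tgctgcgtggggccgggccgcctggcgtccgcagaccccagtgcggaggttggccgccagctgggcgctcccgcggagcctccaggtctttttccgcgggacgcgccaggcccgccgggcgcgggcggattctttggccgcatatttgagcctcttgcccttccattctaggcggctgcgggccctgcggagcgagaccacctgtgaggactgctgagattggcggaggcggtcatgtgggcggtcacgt
*HOXC5* (chr12:54016638-54016887, plus strand): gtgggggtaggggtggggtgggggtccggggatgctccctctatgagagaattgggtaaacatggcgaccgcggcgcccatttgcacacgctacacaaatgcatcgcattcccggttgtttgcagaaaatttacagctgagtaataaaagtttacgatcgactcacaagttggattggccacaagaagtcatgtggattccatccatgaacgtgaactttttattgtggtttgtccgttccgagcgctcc
*HOXD10* (chr2:176116528-176116777, plus strand): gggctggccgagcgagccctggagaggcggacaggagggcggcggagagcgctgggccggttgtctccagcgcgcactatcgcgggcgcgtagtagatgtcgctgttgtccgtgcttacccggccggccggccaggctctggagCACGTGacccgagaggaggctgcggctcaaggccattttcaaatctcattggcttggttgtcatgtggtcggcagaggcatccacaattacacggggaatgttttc
*HOXD13* (chr2:176092471-176092720, plus strand): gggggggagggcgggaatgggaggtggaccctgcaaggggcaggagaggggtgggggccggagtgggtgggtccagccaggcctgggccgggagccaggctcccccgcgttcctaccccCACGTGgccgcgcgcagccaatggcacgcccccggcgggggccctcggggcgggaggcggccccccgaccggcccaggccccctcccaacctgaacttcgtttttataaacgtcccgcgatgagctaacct
The E-box letters occurred in 8 of the 27 HOX windows (29.63%), those of *HOXD1*, *HOXD3*, *HOXD10*, *HOXD11*, *HOXD13*, *HOXA3*, *HOXA4* and *HOXA9*, and in 6.34% of all 35116 windows. TGGGAA, the core letters that the Notch partner RBPJ recognizes, occurred in 1 of 27 HOX windows (3.7%), that of *HOXA4*, and in 20.85% of all windows. AGGTCA, the unit that retinoic acid receptors bind in repeats, occurred in none of the 27 and in 12.08% of all windows. Both were searched on both strands. These matches describe the letters of these windows and not binding.

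The 4 untreated human lines (parental H82, H524 and H69, and COR-L88 with DMSO) had different HOX codes. H82 had almost no *HOXB* RNA, COR-L88 almost no *HOXC* RNA, and H69 and COR-L88 had the most *HOXB* RNA. Summed over a cluster as RPKM, the 3 *HOXB* libraries were at 0.616, 1.16 and 1.63 in H82, 52.7, 99.7 and 100 in H524, 887, 1013 and 1077 in H69 and 643, 769 and 794 in COR-L88. For *HOXC* the sums were 102, 106 and 106 in H82, 61.5, 75.2 and 88.2 in H524, 332, 337 and 366 in H69 and 0.00, 0.0457 and 0.515 in COR-L88. The *HOXB* sums of H82 lay below those of every other line, and the *HOXC* sums of COR-L88 did likewise, with no overlap.

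The highest *HOXA* gene was *HOXA7* in H82 (3.53, 4.90 and 5.19) and H524 (5.98, 3.98 and 6.86), and *HOXA10*, a posterior gene of uterus and blood, in H69 (7.32, 7.26 and 7.20) and COR-L88 (3.83, 3.52 and 3.55). *HOXA7* spread by more than 2 units among the H524 libraries. The highest *HOXB* gene was *HOXB7* in H82 (0.34, 0.81 and 0.46), *HOXB2*, a hindbrain gene, in H524 (6.58, 6.64 and 5.69), and *HOXB9* in H69 (8.37, 8.74 and 8.62) and COR-L88 (7.61, 8.40 and 8.59). In the *HOXC* cluster it was *HOXC8* in H82 (5.08, 5.14 and 5.73), *HOXC6* in H524 (4.48, 3.94 and 4.57) and *HOXC10* in H69 (7.55, 7.71 and 7.50), whereas *HOXC8* led COR-L88 at only 0.35, 0 and 0. In the *HOXD* cluster it was *HOXD13*, which patterns digits, in H82 (2.64, 2.94 and 2.95), and *HOXD10*, a gene of lumbar motor neurons, in H524 (3.94, 4.44 and 4.34), H69 (7.50, 7.14 and 7.39) and COR-L88 (6.25, 6.47 and 6.34). In an F test over the 4 lines, 35 of the 35 HOX genes tested differed (limma, adjusted *P* below 0.05 and a range of at least 1), against 74% of all genes tested. Genes entered this test when at least 3 of these libraries reached 1. A gene expressed in 1 line alone thus passed through the line where it was high and had to differ. In KP1 the DMSO libraries had *Hoxb* and *Hoxd* RNA, led by *Hoxb9* (5.09, 5.16 and 4.80) and *Hoxd8* (6.66, 6.65 and 6.27), while 10 of 11 *Hoxa* genes and 9 of 9 *Hoxc* genes were listed at 0 in every DMSO library.

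**Figure D1:**
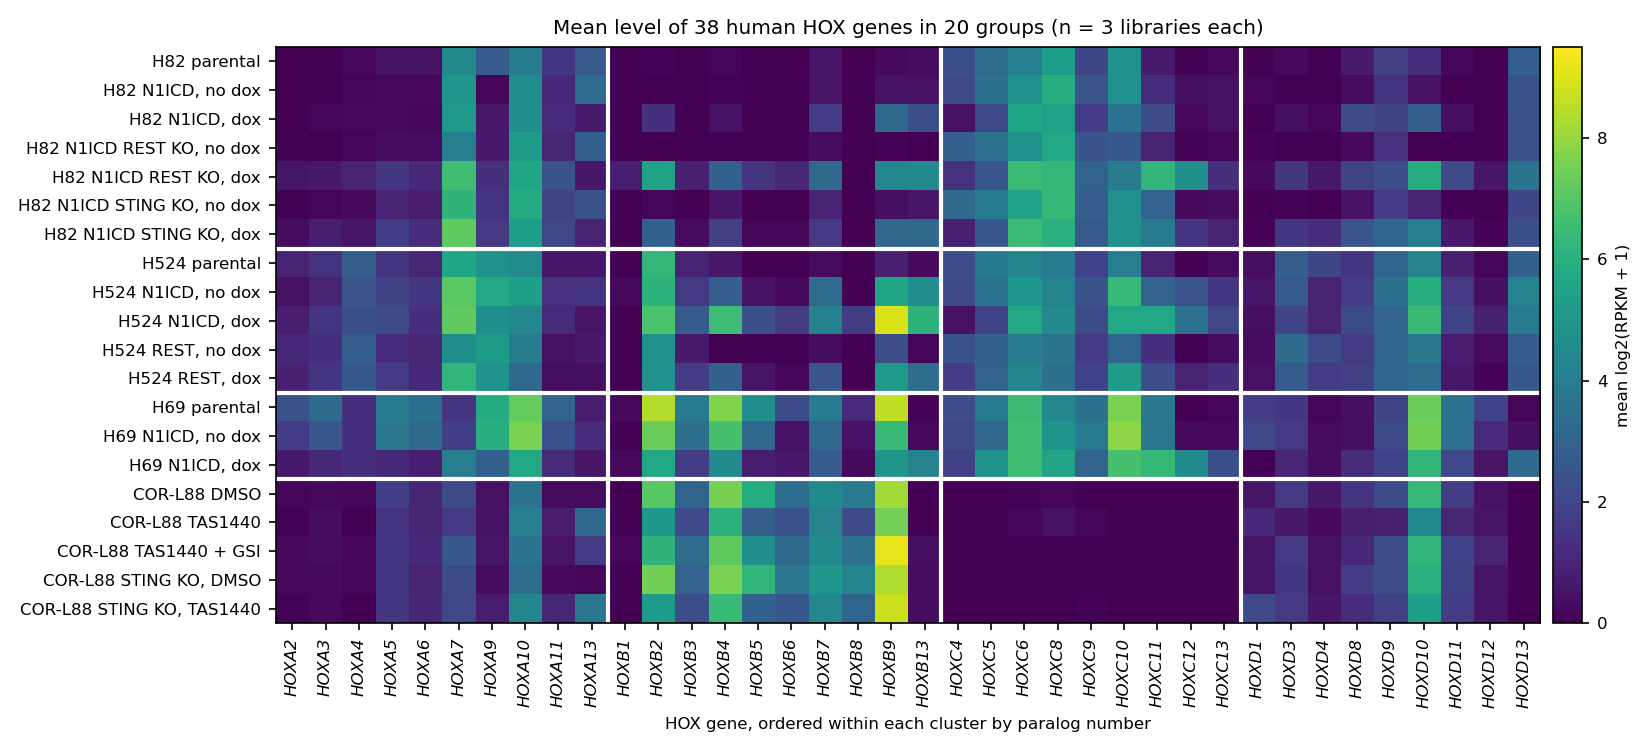
Mean log2(RPKM + 1) of 38 of the 39 human HOX genes (columns, by cluster and paralog number) in the 20 human groups (rows, n = 3 libraries each), with color from 0 to about 9 and white lines between clusters and lines. The *HOXB* block is dark in H82 without Dox and mostly bright in COR-L88, and the *HOXC* block of COR-L88 is dark in all 5 of its groups.

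The next question was how *N1ICD* changed this code in H82. With Dox, 10 of 31 HOX genes tested were called, 6 higher and 4 lower, against 27.1% of all genes tested (14.7% higher and 12.4% lower). The share of HOX genes called was thus 32.3%, near the background. Higher genes belonged to the *HOXB* cluster (*HOXB2*, *HOXB7*, *HOXB9* and *HOXB13*) and to *HOXD* (*HOXD8* and *HOXD10*), and lower genes were *HOXA13* and *HOXC4*, *HOXC5* and *HOXC10*. The median difference over the HOX genes tested was 0.13, and over the 7 *HOXB* genes tested it was 1.17, against 0.00 over all genes, with *HOXB2* counted from its listed 0. Without Dox no *HOXB* gene reached 1 in 3 H82 libraries, so all 7 passed the filter only with Dox libraries counted. Their calls and their median, here and in the knockouts, follow in part from that filter.

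*HOXB9* was listed at 0.46, 0.46 and 0.49 without Dox and at 3.32, 2.99 and 3.53 with Dox, a rise of 2.81 ± 0.39 (limma, adjusted *P* = 1.07e-05). *HOXB13*, the most posterior gene of its cluster and a factor of prostate development, went from 0.38, 0.69 and 0.22 to 2.38, 2.04 and 2.38 (1.84 ± 0.25, adjusted *P* = 8.84e-06). *HOXB2* was listed at 0 in every library without Dox and at 0.89, 1.60 and 1.30 with Dox (adjusted *P* = 0.000337). In each of these genes every Dox library stood above every library without Dox. *HOXB7* went from 0.15, 0.54 and 0.78 to 1.30, 2.07 and 1.61 (1.17 ± 0.21, adjusted *P* = 0.000158), and was no longer called without library 8 or 4 (0.96 to 1.000). *HOXD10* went from 0, 0.64 and 0.67 to 2.66, 3.06 and 2.93 (2.44 ± 0.33, adjusted *P* = 8.52e-06), and *HOXD8* from 0.30, 0.30 and 0.36 to 2.33, 2.22 and 1.99 (1.86 ± 0.16, adjusted *P* = 3.57e-08).

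Of the genes that fell, *HOXA13*, which marks the tail end of gut and the limb tips, went from 2.53, 3.90 and 3.50 to 0.61, 0.73 and 0.68 and fell by 2.64 ± 0.30 (adjusted *P* = 1.02e-06). *HOXC5* went from 3.06, 3.97 and 3.45 to 2.00, 2.16 and 2.28 and fell by 1.35 ± 0.35 (adjusted *P* = 0.00348). The groups did not overlap in either gene. *HOXC10* was 3.99, 5.35 and 5.11 without and 3.70, 3.49 and 3.60 with Dox, and fell by 1.22 ± 0.35 (adjusted *P* = 0.00822), a call that was lost without library 5 (-0.95). *HOXC4* was 2.40, 1.02 and 3.10 without and 0.05, 0.13 and 1.14 with Dox (adjusted *P* = 0.0434). Its groups overlapped, the spread within each was wide, and it was no longer called without library 7, 8, 4 or 6 (-1.62 to -1.27). The abundant *HOXA7* (4.66 to 5.40 without and 4.75 to 5.50 with Dox) and *HOXC8* (5.89 to 6.05 and 5.13 to 5.65) were not called. Without Dox the *N1ICD* line differed from parental H82 in 1 HOX gene, *HOXA9*, a gene of blood progenitors, which went from 2.68, 2.70 and 2.82 in parental cells to 0.48, 0 and 0 (fell by 2.57 ± 0.32, adjusted *P* = 1.91e-05), against 6.41% of all genes tested (3.75% higher and 2.66% lower). Summed as RPKM, the *HOXB* cluster was 0.791, 1.46 and 1.52 without Dox and 15.6, 16.0 and 18.8 with Dox, in libraries sorted by size. Neuroendocrine genes fell in the same comparison. *CHGA* was 5.76 to 6.85 without and 0.30 to 0.58 with Dox and *NEUROD1* 13.03 to 14.41 and 4.33 to 5.38, and their part in the HOX values was not tested.

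**Figure D2:**
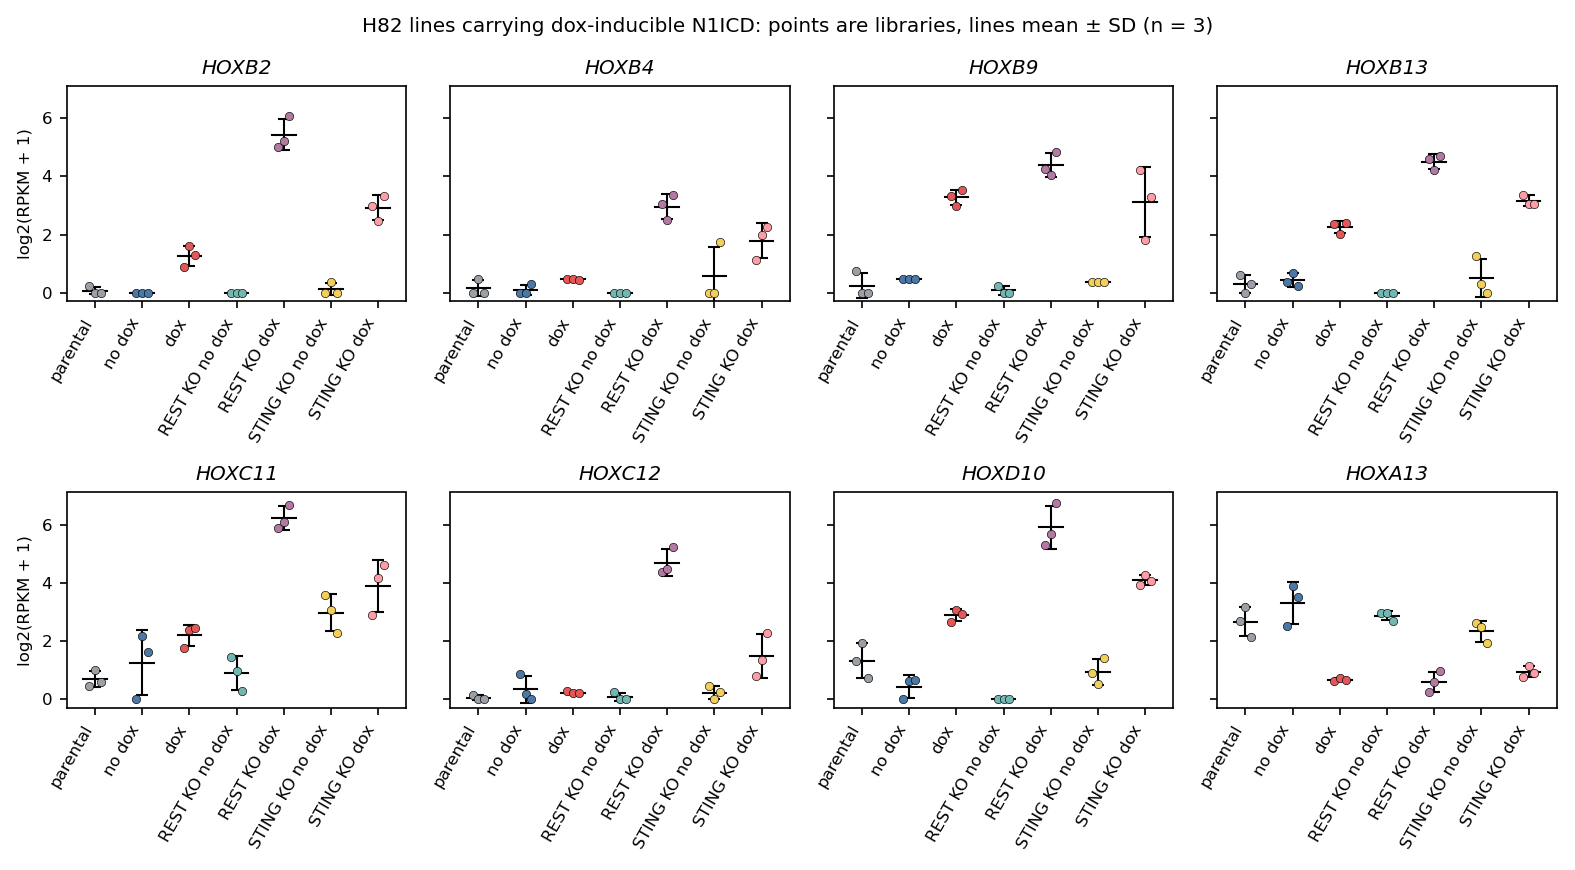
Level of 8 HOX genes in the 7 H82 groups; the y axis is log2(RPKM + 1), points are libraries and bars are mean ± SD (n = 3). In *HOXB2*, *HOXC11*, *HOXC12* and *HOXD10* the *REST* KO Dox libraries stand above all others, and *HOXA13* is lower with Dox in all 3 genotypes.

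In *REST* KO cells Dox gave higher levels of many HOX genes than in intact cells. Here 22 of 31 HOX genes tested were called between *REST* KO cells with and without Dox, 20 higher and 2 lower (*HOXA13* and *HOXC5*), against 29.9% of all genes (16.2% higher and 13.7% lower). By cluster, 4 of 8 tested genes were called in *HOXA*, 7 of 7 in *HOXB*, 6 of 9 in *HOXC* and 5 of 7 in *HOXD*. *HOXB5*, *HOXB6* and *HOXD11* passed the filter only through the *REST* KO Dox libraries. All 7 *HOXB* genes tested passed it only with Dox libraries counted, as above. By paralog number, the called genes were 3 of 6 in groups 1 to 4, 8 of 10 in groups 5 to 8 and 11 of 15 in groups 9 to 13. The *HOXB* cluster as summed RPKM was 0.132, 0.268 and 0.559 without Dox and 85.8, 91.7 and 146 with Dox. *NOTCH1* RNA with Dox was also higher in *REST* KO than in intact cells (values above), and its part in the HOX values was not tested.

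*HOXC11*, which patterns the hindlimb, went from 1.44, 0.97 and 0.30 to 5.91, 6.11 and 6.70 (5.34 ± 0.50, adjusted *P* = 6.32e-08). Its neighbor *HOXC12* went from 0.24, 0 and 0 to 4.38, 4.48 and 5.25 (4.62 ± 0.30, adjusted *P* = 4.65e-10). Both thus went from at most 1.44 to above 4 in every library. *HOXB9* went from 0.25, 0 and 0 to 4.27, 4.07 and 4.85 (4.31 ± 0.39, adjusted *P* = 4.07e-08), and *HOXB7* from 0.46, 0.34 and 0.16 to 3.15, 3.06 and 3.67 (2.97 ± 0.21, adjusted *P* = 1.39e-09). *HOXD10*, *HOXB2*, *HOXB13* and *HOXB4*, the last a regulator of blood stem cells, were listed at 0 in every *REST* KO library without Dox. With Dox *HOXD10* was 5.32, 5.67 and 6.75 (adjusted *P* = 7.07e-11). *HOXB2* was 5.03, 5.24 and 6.07 (adjusted *P* = 4.22e-12), and *HOXB13* was 4.59, 4.22 and 4.71 (adjusted *P* = 6.27e-11). *HOXB4* was 3.06, 2.50 and 3.35 (adjusted *P* = 2e-06), so that all 4 left 0 in 3 of 3 libraries. *HOXA7*, already high, went from 3.88, 4.19 and 4.18 to 6.55, 6.43 and 6.79 (2.51 ± 0.35, adjusted *P* = 8.62e-06), and *HOXA13* fell by 2.28 ± 0.30 (adjusted *P* = 4.79e-06). Among the remaining calls, those of *HOXC5*, *HOXC10* and *HOXC13* each depended on 1 library: *HOXC5* was no longer called without library 31 (-0.89), *HOXC10* without library 28 (0.98) and *HOXC13* without library 33 (0.90).

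With Dox on in both genotypes, 17 of 31 HOX genes tested were called between *REST* KO and intact cells, all of them higher in *REST* KO, against 17.6% of all genes tested (9.44% higher and 8.21% lower in *REST* KO). Of the 31, *HOXB5*, *HOXB6* and *HOXD11* passed the filter only through the *REST* KO Dox libraries, so this count follows in part from the filter. *HOXC12* was higher by 4.48 ± 0.30, *HOXB2* by 4.18 ± 0.24 (adjusted *P* = 5.35e-10), *HOXC11* by 4.04 ± 0.50, *HOXD10* by 3.03 ± 0.33 and *HOXB4* by 2.51 ± 0.36. *HOXB13* was higher by 2.24 ± 0.25, *HOXD11* by 1.69 ± 0.17 and *HOXB7* by 1.63 ± 0.21. These 8 genes were named because their *REST* KO Dox libraries did not overlap the intact Dox libraries, so that is not a separate result. *HOXB9* was higher by 1.12 ± 0.39 (adjusted *P* = 0.0309), a call that was lost without library 31, 33, 7 or 8 (0.89 to 1.18). *HOXD3* was no longer called without library 33 (0.98). *CHGA* and *SYP* were also higher in the *REST* KO Dox libraries, at 4.67 to 5.43 and 5.08 to 5.25 against 0.30 to 0.58 and 0.78 to 1.26, and their part in the HOX values was not tested. Without Dox the genotypes differed in 1 HOX gene, *HOXC10*, at 1.85, 2.96 and 3.08 in *REST* KO and 3.99, 5.35 and 5.11 in intact cells (fell by 2.19 ± 0.35, adjusted *P* = 0.00058), against 6.24% of all genes (3.39% higher and 2.85% lower).

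The test of the difference between the Dox responses of *REST* KO and intact cells called 19 HOX genes, each with a more positive response in *REST* KO, against 12.9% of all genes (7.46% more positive and 5.46% more negative). The limits that the filter sets for the *HOXB* genes and *HOXD11*, given above, hold for this count too. The response of *HOXC12* was greater by 4.75 ± 0.43 (adjusted *P* = 5.32e-07), and in intact cells *HOXC12* was 0.88, 0.17 and 0 without and 0.27, 0.21 and 0.20 with Dox. The response of *HOXC11* was greater by 4.39 ± 0.71 (adjusted *P* = 0.000256), with intact values of 0, 2.16 and 1.62 and 1.78, 2.39 and 2.44. That of *HOXD10* was greater by 3.47 (adjusted *P* = 4.57e-05) and that of *HOXB2* by 4.18 (adjusted *P* = 1.86e-07), both on the log2(RPKM + 1) scale and from a *REST* KO group listed at 0, so that they are not folds. *HOXC10* moved in opposite directions, higher in *REST* KO and lower in intact cells, with a difference of responses of 2.59 ± 0.50 (adjusted *P* = 0.00136). Its level without Dox was already lower in *REST* KO than in intact cells. Its Dox call was lost without library 28 in *REST* KO (0.98) and without library 5 in intact cells (-0.95). The calls of *HOXC13*, *HOXC8* and *HOXD3* did not survive the removal of single libraries: *HOXC13* was no longer called without library 33 or 6 (0.90 to 0.98), *HOXC8* without library 33, 30 or 8 (0.94 to 0.99) and *HOXD3* without library 33 (0.97).

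In *STING* KO cells, 14 of 31 HOX genes tested were called with Dox, 11 higher and 3 lower, against 20.2% of all genes (12.2% higher and 8.07% lower). *HOXD10* went from 0.89, 0.52 and 1.42 to 3.93, 4.28 and 4.06 (3.15 ± 0.33, adjusted *P* = 6.38e-07), *HOXB2* from 0, 0.38 and 0 to 2.99, 2.47 and 3.33 (2.80 ± 0.24, adjusted *P* = 5.64e-08) and *HOXB13* from 1.26, 0.30 and 0 to 3.38, 3.06 and 3.06 (2.65 ± 0.25, adjusted *P* = 1.59e-07). *HOXB9* went from 0.37, 0.37 and 0.36 to 4.23, 1.83 and 3.30 (2.76 ± 0.39, adjusted *P* = 1.99e-05). In all 4 genes the groups did not overlap, although *HOXB9* spread by more than 2 units among the Dox libraries. *HOXD8* rose by 2.03 ± 0.16, *HOXD3* by 1.45 ± 0.13 and *HOXD9* by 1.39 ± 0.19. *HOXC4* fell by 2.44 ± 0.69 (adjusted *P* = 0.00925), from 3.34, 3.35 and 3.16 to 0.23, 0.07 and 2.25, and *HOXA13* fell by 1.40 ± 0.30 (adjusted *P* = 0.00119), from 2.61, 2.48 and 1.94 to 0.78, 1.14 and 0.91. Some calls did not survive the removal of single libraries: *HOXA7* was no longer called without library 58, 60, 55 or 56 (0.80 to 1.04), *HOXB4* without library 60, 55 or 56 (0.93 to 0.98), *HOXC5* without library 58 (-0.998) and *HOXC12* without library 60 (0.84).

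Between *STING* KO and intact cells with Dox, 13 HOX genes were called and all were higher in *STING* KO, against 16.5% of all genes (7.72% higher and 8.75% lower). *HOXA7* was higher by 2.06 ± 0.35 (adjusted *P* = 0.000202), at 7.45, 6.97 and 7.12 against 5.50, 4.75 and 5.09, and *HOXB2* by 1.66 ± 0.24 (adjusted *P* = 6.39e-05). *HOXA5*, which patterns lung and airway, was higher by 1.52 ± 0.17 (adjusted *P* = 4.75e-06), at 1.91, 1.62 and 1.71 against 0.22, 0.14 and 0.33. *HOXC11* was higher by 1.69 ± 0.50, but was no longer called without library 60 (1.33). The call of *HOXA6* was lost without library 58 or 8 (0.90 to 0.99), that of *HOXC9* without library 7 (0.998), that of *HOXC12* without library 60 (0.84) and that of *HOXD4* without library 60 (0.996). Without Dox, 4 HOX genes were called, all higher in *STING* KO, against 14.4% of all genes (6.64% higher and 7.72% lower), a comparison in which the median of all genes was itself at -0.11. *HOXA10* was 5.64, 5.99 and 5.93 in *STING* KO and 4.67, 4.77 and 4.48 in intact cells (1.21 ± 0.25, adjusted *P* = 0.00119), and *HOXA9* was 1.50, 1.66 and 1.14 and 0.48, 0 and 0 (1.27 ± 0.32, adjusted *P* = 0.00505). *HOXC11* and *HOXA7* were higher by 1.71 ± 0.50 and 1.18 ± 0.35, and were no longer called without library 55 or 4 (1.08 to 1.42) and without library 57 or 5 (0.89 to 1.01), respectively. The Dox responses of *STING* KO and intact cells differed in 3 HOX genes against 7.12% of all genes (3.91% higher and 3.21% lower). These were *HOXB2* (greater in *STING* KO by 1.54 from an intact group listed at 0, adjusted *P* = 0.00913), *HOXD4* (by 1.12, adjusted *P* = 0.000276) and *HOXD3* (by 1.04, adjusted *P* = 0.00163), the last no longer called without library 60 (0.95). *HOXD4* passed the filter only through the *STING* KO Dox libraries.

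In H524 the genes that changed with *N1ICD* were mostly in the *HOXB* cluster. Of all HOX genes, 9 of 34 tested were called with Dox, 8 higher and 1 lower, against 18.6% of all genes (11.4% higher and 7.19% lower). Of the 9 *HOXB* genes tested, 7 rose, with a median of 1.53 against -0.02 over all genes. No *HOXA* and no *HOXD* gene was called. *HOXB4* went from 1.34, 3.54 and 3.69 to 6.49, 6.69 and 6.49 (3.70 ± 0.53, adjusted *P* = 0.00011) and *HOXB9* from 4.26, 5.95 and 6.68 to 8.73, 9.08 and 8.97 (3.29 ± 0.48, adjusted *P* = 0.000115). *HOXC11* went from 1.46, 4.71 and 2.96 to 5.68, 5.85 and 5.59 (2.67 ± 0.58, adjusted *P* = 0.00282). In all 3 genes the Dox libraries lay close together while those without Dox spread by more than 2 units, with library 22 lowest. *HOXB5* went from 0.05, 0.77 and 0.61 to 2.23, 2.47 and 2.27 (1.85 ± 0.17, adjusted *P* = 1.55e-06), *HOXB8* from 0, 0.06 and 0.16 to 1.84, 1.63 and 1.85 (1.70 ± 0.10, adjusted *P* = 1.92e-08) and *HOXB6* from 0.07, 0.28 and 0.39 to 1.61, 1.82 and 1.54 (1.41 ± 0.12, adjusted *P* = 5.25e-07). These 3 genes passed the filter only through the Dox libraries. *HOXB13* went from 3.65, 4.74 and 5.40 to 5.99, 6.41 and 5.97 (1.53 ± 0.35, adjusted *P* = 0.00412). *HOXB3* rose by 1.11 ± 0.21 (adjusted *P* = 0.000976), and was no longer called without library 22 (0.83). *HOXC5* fell by 1.71 ± 0.22 (adjusted *P* = 4.77e-05), from 3.17, 3.61 and 4.05 to 1.91, 2.25 and 1.55, without overlap.

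The H524 *N1ICD* line already differed from parental H524 without Dox in 11 of 34 HOX genes tested (10 higher and 1 lower), against 12.1% of all genes (4.94% higher and 7.16% lower). *HOXB9* was 0.92, 0.68 and 0.89 in parental cells and higher by 4.80 ± 0.48 in the line without Dox (adjusted *P* = 2.5e-05). *HOXB13* was 0.77, 0 and 0 in parental cells (4.34 ± 0.35 higher, adjusted *P* = 4.62e-06) and *HOXB7* was 0.40, 0.24 and 0.17 (3.06 ± 0.34 higher, adjusted *P* = 6.13e-05). *HOXC12* was listed at 0 in every parental library and at 1.08, 3.31 and 3.15 in the line (adjusted *P* = 0.00132). *HOXC10* was higher by 2.30 ± 0.47, *HOXD10* by 1.74 ± 0.21 and *HOXC13*, a hair follicle gene, by 1.26 ± 0.25, whereas *HOXD4* was lower and fell by 1.04 ± 0.24. The *NOTCH1* row was 0.23 to 0.73 in parental cells, 0.79 to 1.52 in the line without Dox and 7.58 to 8.31 with Dox. The call of *HOXC11* was lost without library 21 (1.78), that of *HOXD13* without library 22, 24, 19 or 20 (1.08 to 1.24) and that of *HOXD4* without library 23 or 20 (-0.87 to -0.77). When only these 2 groups entered the fit, 6 HOX genes were called.

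Dox-induced *REST* in H524 gave 5 calls, 4 of them in *HOXB*. These 5 of 34 HOX genes tested were all higher, against 1.87% of all genes (1.28% higher and 0.586% lower). *HOXB13* went from 0, 0.38 and 0 to 3.27, 3.46 and 3.51 (3.29 ± 0.35, adjusted *P* = 0.000419), *HOXB9* from 2.00, 2.41 and 2.41 to 4.41, 5.15 and 5.83 (2.85 ± 0.48, adjusted *P* = 0.0065) and *HOXB7* from 0.46, 0.15 and 0.39 to 2.41, 2.73 and 2.33 (2.16 ± 0.34, adjusted *P* = 0.00448). *HOXB4* was listed at 0 in every library without Dox and at 2.61, 3.74 and 2.55 with Dox (adjusted *P* = 0.00989). The groups did not overlap in any of these 4 *HOXB* genes, but *HOXB4* was no longer called without library 38 (2.58). *HOXC10* went from 4.52, 2.44 and 2.18 to 5.71, 4.79 and 5.22 (2.20 ± 0.47, adjusted *P* = 0.0265), and its call was lost without library 37, 38, 39, 35 or 36 (1.76 to 2.42). The *NOTCH1* row also rose in these cells, by 1.38 ± 0.27, and its part in the HOX values was not tested. No HOX gene was called between the *REST* line without Dox and parental H524 (limma), against 0.264% of all genes (0.022% higher and 0.242% lower), and 5 of 34 had an unadjusted *P* below 0.05.

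With Dox in both lines, 17 HOX genes differed between *N1ICD* and *REST* cells, 16 higher and 1 lower with *N1ICD*, against 23.8% of all genes (12.3% higher and 11.5% lower). *HOXB9* was higher by 3.79 ± 0.48, *HOXB4* by 3.59 ± 0.53, *HOXC11* by 3.44 ± 0.58 and *HOXD10* by 3.11 ± 0.21 (adjusted *P* = 5.79e-08). *HOXD10* itself was 6.33, 6.60 and 6.39 with *N1ICD* and 3.59, 3.37 and 3.04 with *REST*, and 5.79, 6.32 and 5.83 and 4.09, 3.59 and 3.72 without Dox, so the lines already stood apart before induction. The call of *HOXC5* was lost without library 27 (-0.94) and that of *HOXD13* without library 27 or 39 (1.15 to 1.19). The responses to *N1ICD* and to *REST* differed in 6 HOX genes against 15.6% of all genes (9.88% higher and 5.68% lower). *HOXB8* (1.65 ± 0.14, adjusted *P* = 2.06e-06), *HOXB5* (1.37 ± 0.24) and *HOXB6* (1.26 ± 0.16) had a more positive response to *N1ICD* than to *REST*, but passed the filter only through the *N1ICD* Dox libraries and so had to differ. *HOXC10* (-2.88 ± 0.67, adjusted *P* = 0.00805), *HOXC5* (-1.77 ± 0.32, adjusted *P* = 0.00127) and *HOXB13* (-1.76 ± 0.50, adjusted *P* = 0.0239) had a more positive response to *REST*. *HOXB13* was no longer called there without library 25, 27, 38, 39, 34 or 36 (-1.73 to -1.68).

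In H69 the response to *N1ICD* ran mostly downward, in *HOXA*, *HOXB* and *HOXD*. With Dox, 23 of 36 HOX genes tested were called, 7 higher and 16 lower, against 41.8% of all genes (21.4% higher and 20.4% lower). In *HOXA* 7 fell and 1 rose of 11 tested, and in *HOXB* 5 fell and 1 rose of 8. The *HOXC* cluster had 4 higher and 1 lower of 9, and *HOXD* 1 higher and 3 lower of 8. The median difference was -1.28 in *HOXA*, -1.56 in *HOXB*, 0.60 in *HOXC* and -0.60 in *HOXD*, against 0.08 over all genes. As summed RPKM, *HOXA* was 273, 300 and 310 without Dox and 73.8, 83.4 and 84.1 with Dox, *HOXB* 336, 373 and 456 and 122, 123 and 150, *HOXC* 383, 386 and 404 and 381, 390 and 395, and *HOXD* 168, 208 and 223 and 86.3, 89.2 and 96.3.

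Of the 16 tested genes with paralog numbers of 9 to 13, 5 rose and 7 fell. *HOXC12*, *HOXC13*, *HOXB13* and *HOXD13* passed the filter only through the Dox libraries and so had to differ. *HOXC12* went from 0.63, 0 and 0 to 4.40, 4.58 and 4.49 (4.28 ± 0.16, adjusted *P* = 2.71e-08) and *HOXB13* from 0.66, 0 and 0 to 4.32, 4.02 and 4.32 (4.00 ± 0.18, adjusted *P* = 1.06e-07). *HOXD13* went from 0.54, 0.45 and 0.12 to 3.41, 3.21 and 3.08 (2.86 ± 0.12, adjusted *P* = 7.6e-08). Each thus stood below 0.7 in every library without Dox and above 3 in every Dox library. *HOXC11* went from 4.21, 3.57 and 3.43 to 6.35, 6.33 and 6.35 (2.61 ± 0.22, adjusted *P* = 5e-06) and *HOXC13* from 0.22, 0.41 and 0.08 to 2.38, 2.26 and 2.31 (2.08 ± 0.10, adjusted *P* = 1.39e-07). The other genes that rose were *HOXA7* (2.01, 2.08 and 1.17 to 4.16, 3.94 and 4.12, 2.32 ± 0.44, adjusted *P* = 0.000979) and *HOXC5* (3.60, 3.04 and 2.82 to 5.07, 4.87 and 4.63, 1.71 ± 0.20, adjusted *P* = 5.56e-05).

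Among the genes that fell, *HOXA9* went from 6.06, 5.90 and 5.85 to 2.97, 2.83 and 2.99 and fell by 3.01 ± 0.14 (adjusted *P* = 1.09e-07). *HOXA5* went from 3.46, 3.99 and 3.81 to 1.14, 1.03 and 1.15 and fell by 2.65 ± 0.13 (adjusted *P* = 1.3e-07), and *HOXA6* fell by 2.50 ± 0.16 (adjusted *P* = 9.18e-07), from 2.94, 3.60 and 3.35 to 0.98, 0.79 and 0.63. The groups stood apart in all 3, with replicates within 0.7 of each other. *HOXB5* fell by 2.40 ± 0.17, from 3.60, 2.98 and 2.96 to 0.91, 0.69 and 0.73, and *HOXB4* by 2.20 ± 0.13, from 6.90, 6.62 and 6.71 to 4.50, 4.31 and 4.80. *HOXD1*, a gene of sensory neurons, fell by 2.04 ± 0.16, from 2.30, 2.20 and 1.72 to 0.04, 0.07 and 0. *HOXB9* fell by 1.44 ± 0.23, from 6.96, 6.16 and 6.09 to 4.85, 4.83 and 5.20, *HOXB2* by 1.68 ± 0.15 and *HOXB3* by 1.87 ± 0.06. *HOXD10* fell by 1.26 ± 0.13, from 7.22, 7.54 and 7.66 to 6.29, 6.20 and 6.14, and *HOXC10* by 1.09 ± 0.09. *HOXC6*, at 6.51 to 6.63 without and 6.42 to 6.64 with Dox, was among the genes not called. Without Dox the line differed from parental H69 in 4 HOX genes, all lower and all in *HOXB*, against 5.27% of all genes (3.02% higher and 2.25% lower). *HOXB9* was 8.37, 8.74 and 8.62 in parental cells and fell by 2.17 ± 0.23 (adjusted *P* = 0.000268), *HOXB6* was 2.13, 2.20 and 2.16 and fell by 1.69 ± 0.06 to 0.47, 0.44 and 0.50 (adjusted *P* = 5.12e-07), a gene that passed the filter only through the parental libraries, *HOXB5* fell by 1.52 ± 0.17, and *HOXB2* fell by 1.03 ± 0.15 but was no longer called without library 50 or 47 (-0.93 to -0.92).

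**Figure D3:**
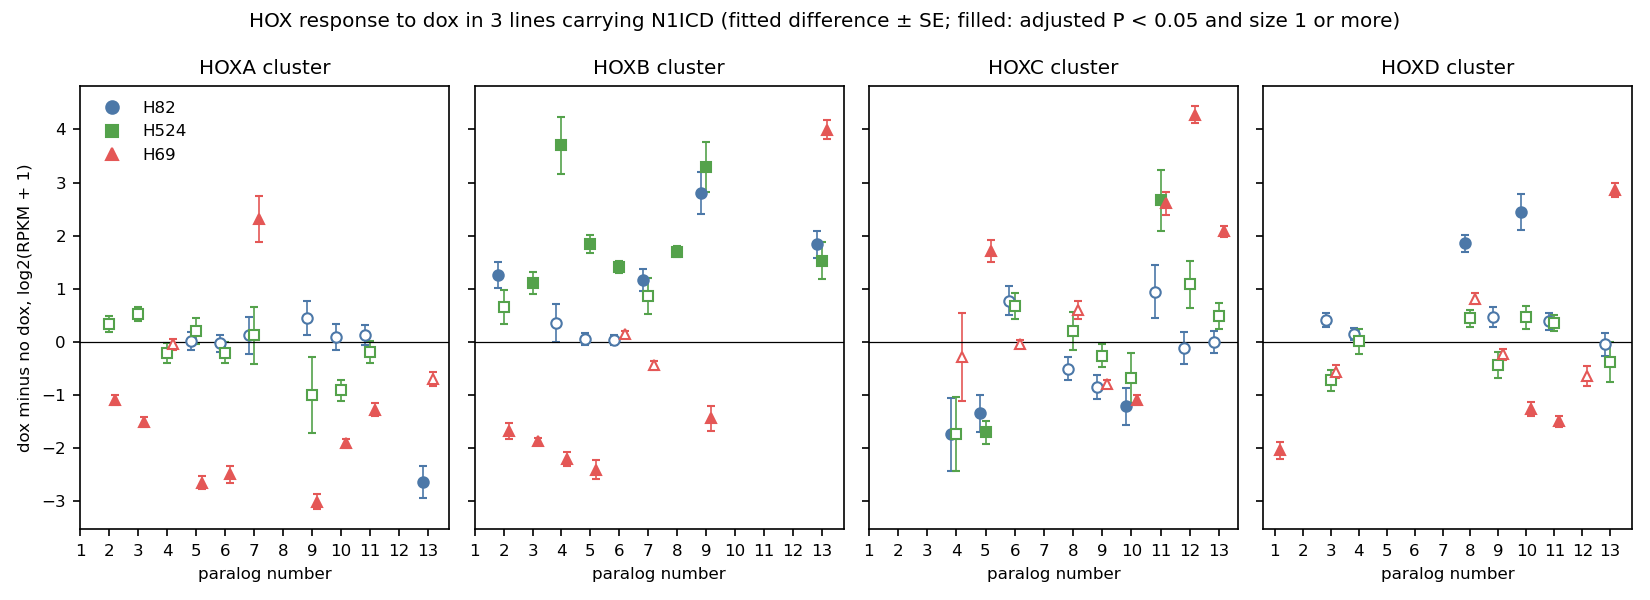
Difference in log2(RPKM + 1) between Dox and no Dox (y axis, ± SE) against paralog number (x axis) for HOX genes tested in H82, H524 and H69 lines carrying *N1ICD* (3 against 3 libraries in each), with filled symbols for called genes. *HOXB13* is filled and above 0 in all 3 lines, while H69 lies below 0 for *HOXB2* to *HOXB5* and H524 above; *HOXB2* of H82 is measured from a group listed at 0.

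The 3 *N1ICD* responses were then compared with each other. In an F test of the difference between responses, 28 of the 37 HOX genes tested differed (adjusted *P* below 0.05 and a range of at least 1), against 54.9% of all genes tested. A gene that passed the filter only through the Dox libraries of 1 line had to differ here too. The widest range was that of *HOXB4*, 5.90, followed by *HOXB9* (4.73), *HOXC12* (4.40) and *HOXB5* (4.25). Of these genes, only *HOXB13* was called higher in all 3 lines. In H69 it passed the filter only through the Dox libraries, and in H82 only with Dox libraries counted. *HOXC11* was called higher in H524 and H69 and in neither direction in H82, and *HOXC10* was called lower in H82 and H69. The number of genes called in opposite directions in 2 of the 3 lines was 7, namely *HOXB2*, *HOXB3*, *HOXB4*, *HOXB5*, *HOXB9*, *HOXC5* and *HOXD10*. Each of the *HOXB* genes among them was higher in H82 or H524 and lower in H69. *HOXB9*, for example, was 0.46 to 0.49 without Dox in H82, 4.26 to 6.68 in H524 and 6.09 to 6.96 in H69, and 2.99 to 3.53, 8.73 to 9.08 and 4.83 to 5.20 with Dox. *HOXB3* was 1.06 to 2.08 without and 2.64 to 2.84 with Dox in H524, and 3.44 to 3.58 and 1.58 to 1.69 in H69, where *HOXB2* was 7.17 to 7.52 and 5.51 to 5.88. *HOXD10* likewise was called higher in H82 and lower in H69, and *HOXC5* lower in H82 and H524 and higher in H69.

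In COR-L88 the cells were treated with TAS1440, with *REST* at 3.52 to 3.57 with DMSO and 6.25 to 6.57 with TAS1440. In this comparison 8 of 19 HOX genes tested were called between TAS1440 and DMSO, 1 higher and 7 lower, against 22.8% of all genes (15.3% higher and 7.46% lower). *HOXA13* was the 1 gene that rose, from 0.17, 0.39 and 0.23 to 2.69, 3.31 and 3.62 (2.94 ± 0.23, adjusted *P* = 2.59e-07). *HOXB5* fell by 3.03 ± 0.26 (adjusted *P* = 5.49e-07), from 5.73, 5.79 and 6.16 to 2.79, 2.86 and 2.93, and *HOXB2* by 1.95 ± 0.14 (adjusted *P* = 1.23e-07), from 7.08, 6.90 and 7.06 to 5.11, 5.04 and 5.06. None of these groups overlapped, and the libraries of each group lay within 1 unit of each other. *HOXD10* fell by 1.92 ± 0.26 (adjusted *P* = 3.48e-05), from 6.25, 6.47 and 6.34 to 3.93, 4.45 and 4.92, *HOXB8* by 1.71 ± 0.30, from 4.09, 3.81 and 3.70 to 1.83, 2.34 and 2.30, and *HOXB4* by 1.46 ± 0.15, from 7.70, 7.68 and 7.32 to 6.01, 6.19 and 6.13. *HOXD9* fell by 1.31 ± 0.30, from 2.00, 2.22 and 2.30 to 0.36, 1.14 and 1.08, and *HOXB6* by 1.04 ± 0.25, a call that was lost without library 13 or 10 (-0.998 to -0.81). *HOXB13*, higher with Dox in the 3 *N1ICD* lines, did not pass the filter here and was at most 0.74 in any COR-L88 library. The *HOXC* genes did not pass it either, and their highest group mean was 0.42.

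Adding the GSI to TAS1440 gave levels nearer to DMSO for several of these genes. Between TAS1440 and TAS1440 with GSI, 9 HOX genes were called, 1 higher and 8 lower with TAS1440 alone, against 14.7% of all genes (10.4% higher and 4.32% lower). *HOXB5* was 4.88, 4.58 and 4.73 with both agents, and the level with TAS1440 alone fell by 1.87 ± 0.26 against it (adjusted *P* = 8.19e-05). *HOXD10* with GSI was 6.66, 5.96 and 5.98 (fell by 1.77 ± 0.26, adjusted *P* = 0.000132) and *HOXB9* was 9.06, 9.14 and 9.21 with GSI against 6.90, 7.80 and 7.85 without it (fell by 1.62 ± 0.26, adjusted *P* = 0.00021). The *HOXB9* levels with GSI did not return to DMSO but lay above it (7.61, 8.40 and 8.59), by 0.94 ± 0.26, a difference below the threshold for a call. *HOXA13* was 2.13, 1.32 and 1.46 with GSI, and higher by 1.57 ± 0.23 with TAS1440 alone (adjusted *P* = 0.00013). *HOXB8* fell by 1.42 ± 0.30, *HOXD9* by 1.38 ± 0.30, *HOXB3* by 1.27 ± 0.16, *HOXB2* by 1.11 ± 0.14 and *HOXB4* by 1.07 ± 0.15. The call of *HOXB2* was lost without library 16 (-0.99), and so was that of *HOXB4* without library 16 (-0.99). Against DMSO the cells with both agents differed in 2 HOX genes, against 9.02% of all genes (5.62% higher and 3.4% lower): *HOXA13* was higher by 1.38 ± 0.23 (adjusted *P* = 0.000659) and *HOXB5* fell by 1.16 ± 0.26 (adjusted *P* = 0.00516). The *NOTCH1* row itself was 6.71 to 6.75 with both agents, 1.99 to 2.79 with TAS1440 and 0.61 to 0.74 with DMSO.

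**Figure D4:**
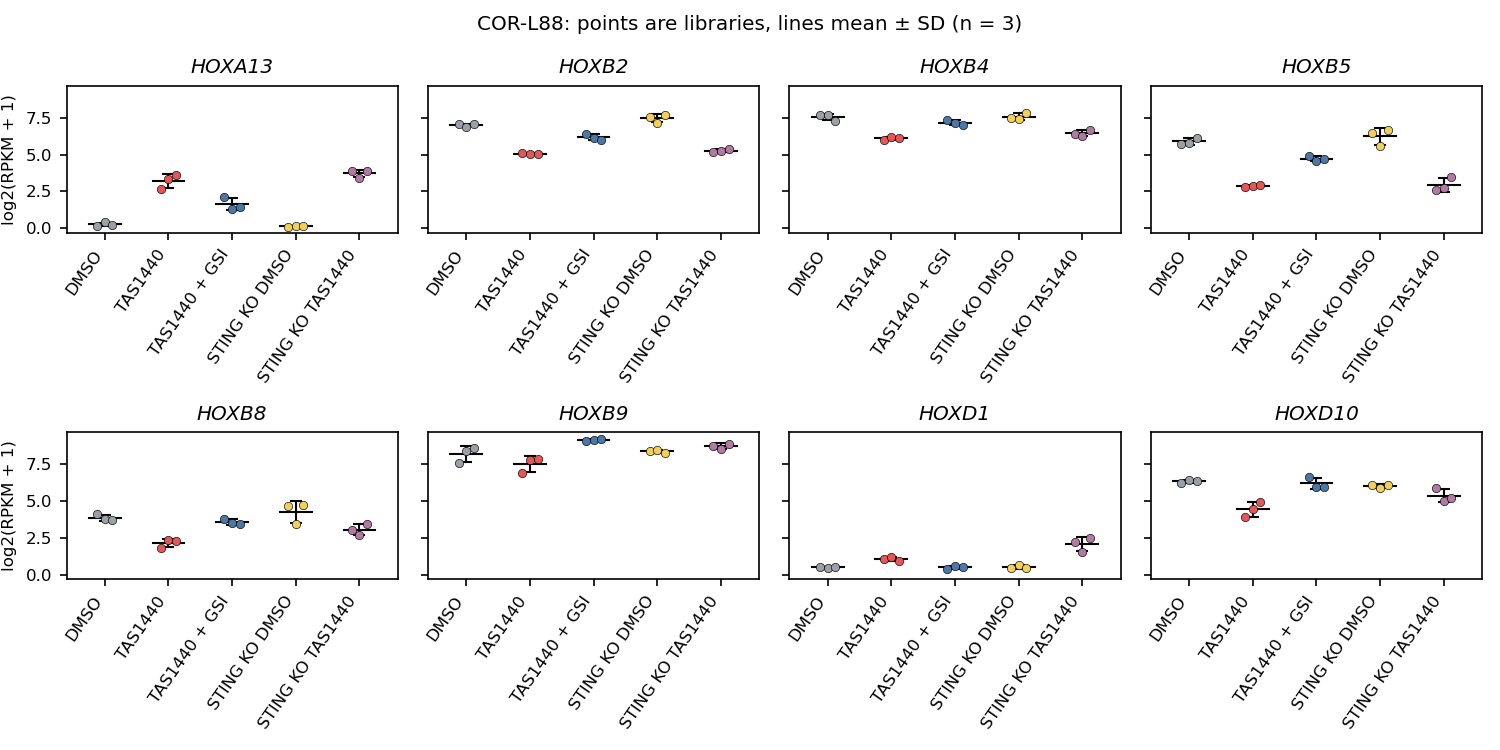
Level of 8 HOX genes in the 5 COR-L88 groups; the y axis is log2(RPKM + 1), points are libraries and bars are mean ± SD (n = 3). *HOXA13* is high with TAS1440 in both genotypes and *HOXB5* is low in the same groups. The TAS1440 with GSI libraries lie between or near DMSO, except in *HOXB9*, where they lie above both DMSO and TAS1440.

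In COR-L88 *STING* KO cells TAS1440 gave 7 calls among 19 HOX genes tested, 2 higher and 5 lower, against 16% of all genes (10.2% higher and 5.79% lower). *HOXA13* went from 0.10, 0.14 and 0.15 to 3.87, 3.41 and 3.86 (3.58 ± 0.23, adjusted *P* = 5.99e-08) and *HOXD1* from 0.44, 0.69 and 0.44 to 2.23, 1.55 and 2.51 (1.57 ± 0.19, adjusted *P* = 1.84e-05). *HOXB5* fell by 3.29 ± 0.26, from 6.47, 5.59 and 6.66 to 2.62, 2.73 and 3.50, and *HOXB2* by 2.21 ± 0.14, from 7.58, 7.15 and 7.68 to 5.16, 5.23 and 5.37. The groups of these 4 genes did not overlap. *HOXB4* fell by 1.14 ± 0.15, *HOXB8* by 1.23 ± 0.30 and *HOXB6* by 1.14 ± 0.25. The call of *HOXB8* was lost without library 42 (-0.995) and that of *HOXB6* without library 40 (-0.97). With TAS1440 in both genotypes, 2 HOX genes were called, against 6.53% of all genes (1.48% higher and 5.06% lower). *HOXB9* was higher in *STING* KO by 1.23 ± 0.26 (adjusted *P* = 0.00405), at 8.78, 8.53 and 8.92 against 6.90, 7.80 and 7.85, and *HOXD1* by 1.01 ± 0.19 (adjusted *P* = 0.00201). Both depended on single libraries: *HOXB9* was no longer called without library 13 (0.92) and *HOXD1* without library 43, 45 or 15 (0.81 to 0.95). No HOX gene was called between the genotypes with DMSO (limma), against 1.47% of all genes (0.457% higher and 1.01% lower), and 2 of 19 had an unadjusted *P* below 0.05. The responses differed in 1 gene, *HOXD3* (1.01 ± 0.23, adjusted *P* = 0.019), against 4.23% of all genes (0.921% higher and 3.31% lower). *HOXD3* was 1.50, 1.60 and 1.74 with DMSO and 0.55, 0.56 and 0.83 with TAS1440 in intact cells, and 1.52, 1.70 and 1.38 and 1.86, 1.20 and 1.67 in *STING* KO, and was no longer called without library 43, 45, 42, 13, 14 or 12 (0.87 to 0.96).

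In KP1 a cluster that was listed at 0 with DMSO appeared with TAS1440. Of the 11 *Hoxa* genes, 10 were listed at 0 in every DMSO library and 8 in every library with TAS1440 and GSI, whereas 10 were above 0 in all 3 TAS1440 libraries and the last, *Hoxa11*, in 1 of them (0, 0.09 and 0). As summed RPKM the cluster was 0.00, 0.0288 and 0.0334 with DMSO, 10.2, 14.3 and 16.9 with TAS1440 and 0.00, 0.0279 and 0.0441 with TAS1440 and GSI. Most of these levels were low: 3 of the 11 *Hoxa* genes passed the filter and were tested, and all 3 passed through the TAS1440 libraries alone. *Hoxa10* was listed at 1.47, 2.50 and 3.22 with TAS1440 and at 0 in every other library (adjusted *P* = 0.000562 against DMSO and adjusted *P* = 0.000656 against TAS1440 with GSI). *Hoxa5* was 1.57, 1.90 and 1.32 with TAS1440, 0 in every DMSO library and 0, 0 and 0.06 with GSI (adjusted *P* = 2.54e-05 and adjusted *P* = 3.24e-05). *Hoxa4* was 0, 0.04 and 0.05, 1.77, 2.06 and 1.44 and 0.04, 0 and 0 in the same order, higher with TAS1440 by 1.73 ± 0.14 than with DMSO (adjusted *P* = 2.09e-05). *Hoxa7* (1.01, 1.89 and 0.55 with TAS1440) and *Hoxa13* (1.01, 0.67 and 0.71) were listed at 0 in the other 6 libraries and were not tested. The *Hoxc* genes stayed at most 0.33 in every library.

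In all, 10 of 17 KP1 HOX genes tested were called between TAS1440 and DMSO, 5 higher and 5 lower, against 18.8% of all genes (9.09% higher and 9.7% lower). *Hoxb13* was listed at 0 in every DMSO library, at 2.68, 1.46 and 1.41 with TAS1440 and at 0.08, 0 and 0.16 with GSI (adjusted *P* = 0.000871 against DMSO), and passed the filter only through the TAS1440 libraries. *Hoxd13* was 1.34, 1.16 and 0.42 with DMSO and 2.79, 2.70 and 2.81 with TAS1440 (1.79 ± 0.26, adjusted *P* = 0.000566). It was also 3.50, 2.78 and 3.01 with GSI, higher than with DMSO (2.12 ± 0.26, adjusted *P* = 0.0037), so the GSI libraries did not return to the DMSO level in this gene. *Hoxb5* fell by 2.15 ± 0.32 (adjusted *P* = 0.000709), from 4.63, 4.54 and 4.26 to 2.79, 1.75 and 2.44, with 2.40, 3.02 and 3.49 in the presence of GSI. *Hoxd8* fell by 2.00 ± 0.28 (adjusted *P* = 0.00051), from 6.66, 6.65 and 6.27 to 4.56, 3.94 and 5.06, and was 6.28, 6.48 and 6.75 with GSI. The *Hoxd8* levels with GSI overlapped those with DMSO, whereas the TAS1440 libraries lay below both groups. *Hoxd9* fell by 1.17 ± 0.16, from 1.74, 1.94 and 1.50 to 0.69, 0.59 and 0.37, and *Hoxd11* by 1.18 ± 0.18, from 3.30, 3.23 and 2.81 to 2.07, 1.70 and 2.03. *Hoxd1* fell by 1.05 ± 0.29, a call that was lost without library 4, 1 or 2 (-1.07 to -0.94).

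Between TAS1440 and TAS1440 with GSI in KP1, 10 HOX genes were called, 5 higher and 5 lower with TAS1440 alone, against 16.5% of all genes (8.5% higher and 8% lower). *Hoxd11* fell by 1.84 ± 0.18, *Hoxd10* by 1.69 ± 0.39 and *Hoxd8* by 1.98 ± 0.28 relative to the cells with GSI. *Hoxb9* was higher by 1.24 ± 0.36 (adjusted *P* = 0.0281) with overlapping groups, and was no longer called without library 4, 5, 7 or 8 (0.93 to 1.20). Between TAS1440 with GSI and DMSO, 2 HOX genes were called, *Hoxd13* (above) and *Hoxb4*, which fell by 1.02 ± 0.20 (adjusted *P* = 0.042), against 1.21% of all genes (0.46% higher and 0.751% lower). *Hoxb4* was no longer called without library 7, 8, 9, 1, 2 or 3 (-1.12 to -0.88). The TAS1440 libraries were uneven in neuroendocrine genes, with *Insm1* at 0.17, 2.14 and 4.73 against 7.19 to 7.25 with DMSO. Library 6, the one with the most *Insm1*, also had the highest *Hoxa10* and *Hoxb2* (2.04, 1.93 and 3.05) and the lowest *Hoxb4* (2.13, 2.00 and 1.47) of the 3. In bulk RNA fewer cells that express a gene and less RNA per cell cannot be told apart.

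**Figure D5:**
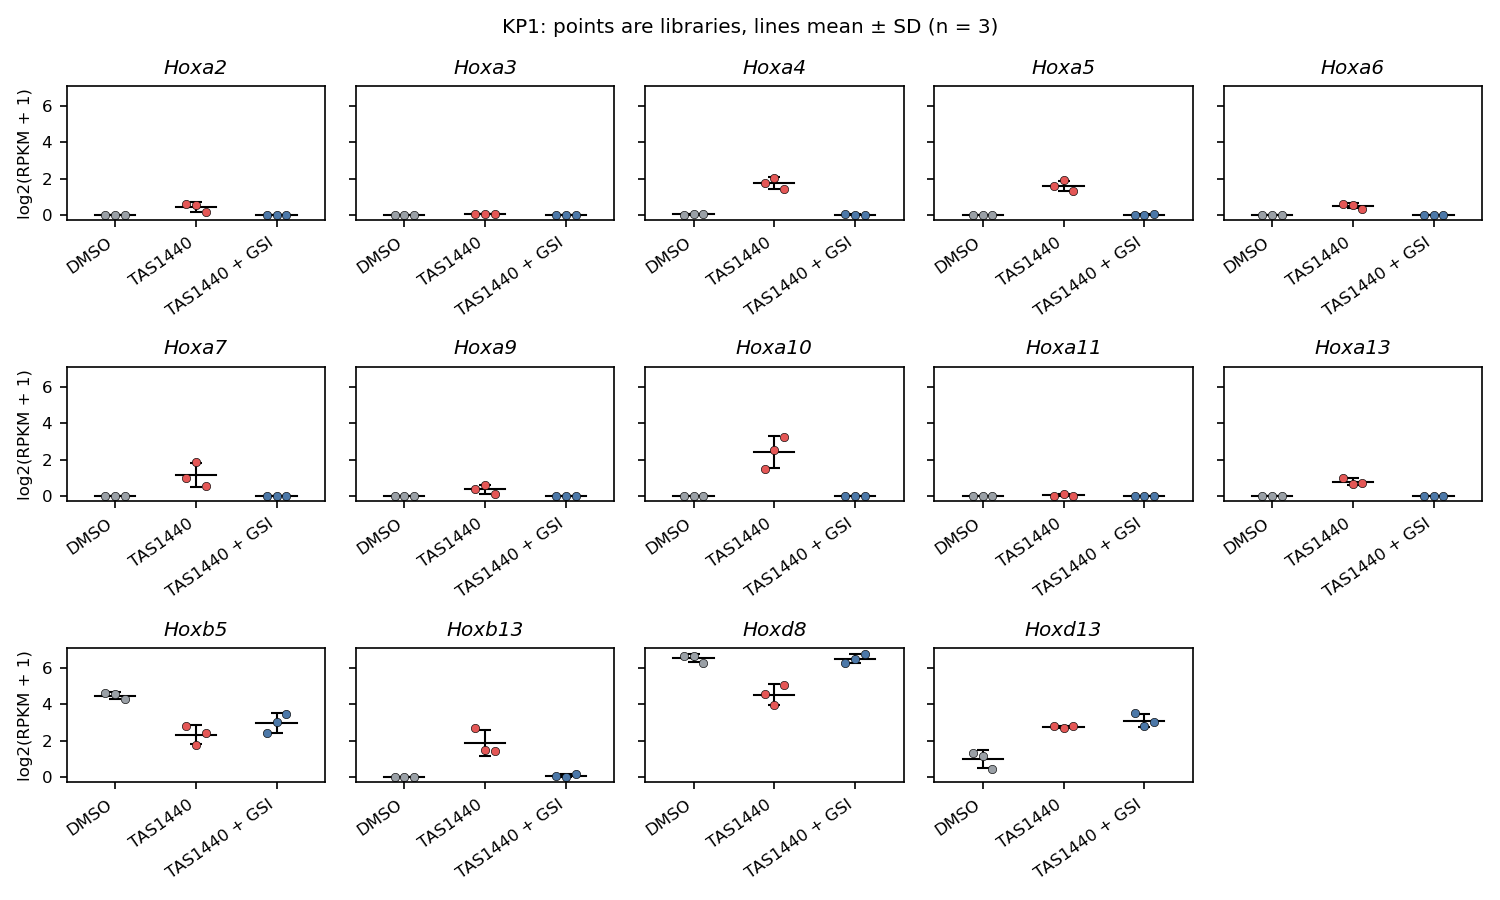
Level of 10 *Hoxa* genes and 4 other HOX genes in KP1 cells with DMSO, TAS1440 or TAS1440 with GSI; the y axis is log2(RPKM + 1), points are libraries and bars are mean ± SD (n = 3). The *Hoxa* genes are at or near 0 in all DMSO and GSI libraries. With TAS1440 *Hoxa4*, *Hoxa5* and *Hoxa10* are above 1 in every library, and each other *Hoxa* gene drawn has libraries below 1. *Hoxd13* is above its DMSO levels in both groups that received TAS1440.

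Set side by side, the comparison of *N1ICD* or TAS1440 with its control in the 5 lines gave 1 gene, *HOXB13*, that was called higher in 4 lines (H82, H524, H69 and KP1). In H69 and KP1 this gene passed the filter only through the treated libraries, so those calls were fixed by the filter. In H82 too it passed only with Dox libraries counted. A further 13 genes were called higher in at least 1 line and lower in another: *HOXA5*, *HOXA10*, *HOXA13*, *HOXB2*, *HOXB3*, *HOXB4*, *HOXB5*, *HOXB6*, *HOXB8*, *HOXB9*, *HOXC5*, *HOXD8* and *HOXD10*. *HOXA13* fell with *N1ICD* in H82 and rose with TAS1440 in COR-L88. *HOXA5* and *HOXA10* fell in H69, *HOXA10* from 7.44, 7.70 and 7.67 to 5.74, 5.58 and 5.77, and rose from 0 in KP1, and *HOXD8* rose in H82 and fell in KP1. *HOXB6* and *HOXB8* rose in H524 and fell in COR-L88, where *HOXB6* was 3.53, 3.40 and 3.38 with DMSO and 1.94, 2.52 and 2.73 with TAS1440. Genes called in none of the 5 lines included some that were tested in few of them or not at all. *HOXC6*, *HOXC8* and *HOXC9* were tested in H82, H524 and H69, and *HOXD3* in every human line. *HOXD4* was tested in H82 and H524, *HOXD12* in H69 alone and *HOXB1* in no line. These genes were not alike in level: *HOXB1* was listed at 0 in most human libraries, whereas *HOXC6* was above 4 in most libraries of H82, H524 and H69.

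Partners and regulators of the HOX genes were read from the same fits. Of the TALE cofactors (PBX, MEIS and PKNOX), 3 of 9 tested fell with *N1ICD* in H82, where 12.4% of all genes fell, *PKNOX2* by 1.83 ± 0.24, *MEIS2* by 1.33 ± 0.24 and *PBX3* by 1.01 ± 0.22. In H524 3 of 8 rose (among them *MEIS3* by 1.50 ± 0.38 and *PBX2* by 1.10 ± 0.20), against 11.4% of all genes, and in H69 3 rose and 1 fell of 9, a share near the 41.8% of all genes, with *PKNOX2* higher by 3.21 ± 0.18. Among 19 chromatin regulators of the clusters, 1 rose and 1 fell in H82, against 27.1% of all genes. *JARID2*, which helps to recruit Polycomb, fell by 2.12 ± 0.29. In *REST* KO with Dox against intact with Dox, *DOT1L* (1.52 ± 0.18), *KDM6B* (1.26 ± 0.39) and *KMT2B* (1.26 ± 0.22) of the same 19 were higher, where 9.44% of all genes were higher. H69 had *BMI1* higher by 1.28 ± 0.07 and *EZH2* (fell by 1.08 ± 0.06), *EZH1* (fell by 1.06 ± 0.08) and *CBX2* (fell by 1.03 ± 0.08) lower, of 17 tested. This share lay below the 41.8% of all genes called there. With TAS1440, *CTCF* fell by 1.01 ± 0.14 in COR-L88, where 7.46% of all genes fell. In KP1 *Jarid2* (fell by 2.07 ± 0.25), *Cbx2* (fell by 1.50 ± 0.22) and *Cbx7* (fell by 1.28 ± 0.19) were lower of 17 tested, where 9.7% of all genes were lower.

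Retinoic acid, made by ALDH1A enzymes and read by RAR and RXR receptors, is a well-known inducer of HOX genes. With *N1ICD* in H82, 3 genes of this pathway rose and 4 fell of 12 tested, against 27.1% of all genes called, *ALDH1A2* going from 1.03, 0.94 and 0.98 to 5.93, 6.82 and 7.48 (5.76 ± 0.42, adjusted *P* = 4.09e-09) whereas *RXRG* fell by 3.84 ± 0.27. In *REST* KO cells with Dox *ALDH1A2* was lower than in intact cells with Dox (fell by 2.50 ± 0.42). In H524 4 rose and 2 fell of 12, against 18.6% of all genes, led by *ALDH1A1* (4.08 ± 0.17). In H69 3 rose and 4 fell of 14, near the 41.8% of all genes. In COR-L88 6 of 8 rose with TAS1440, against 15.3% of all genes, and *RXRA* went from 3.07, 3.09 and 3.06 to 7.87, 9.11 and 9.40 (5.72 ± 0.52, adjusted *P* = 8.18e-07). In KP1 3 were tested, with *Rarg* higher by 1.62 ± 0.13 and *Aldh1a2* lower (fell by 1.54 ± 0.11), against 18.8% of all genes called. With TAS1440 and GSI against DMSO *Aldh1a2* also fell, by 1.62 ± 0.11, and *Rarg* was not called. *Cdx2*, which drives posterior HOX genes in the embryo, was listed at 0 in every KP1 DMSO library and at 0.65, 2.62 and 2.53 with TAS1440 and 2.04, 0.02 and 0.55 with GSI.

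Noncoding RNAs of the clusters were also read. *HOXD-AS2* rose with *N1ICD* in H82 (1.36 ± 0.13). In H524, 4 of 8 rose, against 11.4% of all genes, *HOXB-AS1* by 1.88 ± 0.21, *HOXC-AS2* by 1.66 ± 0.47, *HOXA-AS2* by 1.26 ± 0.25 and *HOTAIR*, transcribed from the *HOXC* cluster next to *HOXC11*, by 1.18 ± 0.24. In H69 2 rose and 4 fell of 8, against 41.8% of all genes, with *HOTAIR* higher by 1.85 ± 0.09 and *HOXC-AS1* lower (fell by 2.48 ± 0.12). In COR-L88 *HOTAIRM1*, from the anterior end of *HOXA*, rose by 1.71 ± 0.28 with TAS1440 and *HOXB-AS1* fell by 1.35 ± 0.16. In KP1 *Hotairm1* was listed at 0 in every DMSO library and at 1.14, 1.57 and 1.19 with TAS1440.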

How the data were processed

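The libraries were 60 from 4 human lines and 9 from KP1, 3 to a group as given by the labels. The authors deposited log2 RPKM values, which from their lowest steps are log2(RPKM + 1). The submitters' processing notes, written by the authors, name cutadapt, STAR, RSEM and edgeR and the builds hg19 and mm10, and the authors' methods state TMM scaling. Tool versions are not given in the sources used here. Counts were not used here, so the voom test of the study was replaced by limma 3.58.1 (R 4.3.3) with a variance trend on the log2 values. Each line was fitted on its own over all its groups; genes reaching a log2 value of 1 in at least 3 libraries were tested, two-sided, with Benjamini-Hochberg adjustment over all genes tested, and called at an adjusted *P* below 0.05 and a difference of at least 1. The fit was tested on simulated data. Depth is known only relative to other libraries of the same table.

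HOX genes were matched by symbol. The members and gene lists were chosen with earlier results of these data known. Named with values were the highest gene of each cluster in each untreated line, called genes without overlap (up to 8 a comparison), genes called in opposite directions between lines, up to 4 for each difference of responses, and up to 4 called genes of each other list; other HOX genes named were chosen after their values were seen. Promoter sequences came from RefSeq (GRCh38.p14) by symbol. Alternatives were no filter, a pseudocount of 0.1, quantile normalization, fitting only the compared groups and leaving out each library. Some genes are not reported here.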

Additional observations from a re-analysis of the deposited data

Results flagged for a closer look

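Results are listed here because the response to the same treatment differed between genotypes, constructs or lines by a test of the difference itself. In H82 the Dox response differed between *REST* KO and intact cells in 19 of 31 HOX genes tested (12.9% of all genes), with the largest differences in *HOXC12* (4.75), *HOXC11* (4.39), *HOXB2* (4.18) and *HOXD10* (3.47). All 4 lay above 0, with a more positive response in *REST* KO, and the starting levels of *HOXB2* and *HOXD10* in *REST* KO cells were listed at 0. Among the genes tested, *HOXB5*, *HOXB6* and *HOXD11* passed the filter only through the *REST* KO Dox libraries. Every *HOXB* gene tested passed it only with Dox libraries counted, so the count follows in part from the filter. Between *STING* KO and intact H82 cells the response differed in 3 of 31 HOX genes, near the 7.12% of all genes. They were *HOXB2* (1.54, from an intact group listed at 0), *HOXD4* (1.12) and *HOXD3* (1.04), the last not called without library 60 (0.95). Only the *STING* KO Dox libraries took *HOXD4* past the filter.

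In H524 the responses to *N1ICD* and *REST* differed in 6 of 34 HOX genes, near the 15.6% of all genes. *HOXC10* (-2.88), *HOXC5* (-1.77) and *HOXB13* (-1.76) had the more positive response to *REST*, and *HOXB8* (1.65) had the more positive response to *N1ICD*. *HOXB13* was no longer called without library 25, 27, 38, 39, 34 or 36 (-1.73 to -1.68), and *HOXB8* passed the filter only through the *N1ICD* Dox libraries. In COR-L88 the TAS1440 response differed between *STING* KO and intact cells in 1 of 19 HOX genes, near the 4.23% of all genes. This was *HOXD3* (1.01), which was no longer called without library 43, 45, 42, 13, 14 or 12 (0.87 to 0.96). Across H82, H524 and H69 the *N1ICD* response differed in 28 of 37 HOX genes, against 54.9% of all genes, with the widest ranges in *HOXB4* (5.90), *HOXB9* (4.73), *HOXC12* (4.40) and *HOXB5* (4.25). Genes that passed the filter only through the Dox libraries of 1 line had to differ in this test. No group had more than 3 libraries, so single outlying libraries were not looked for by a test.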

How the results depend on the processing

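No difference of a named HOX gene changed direction under any alternative run. Most calls stayed past the threshold, with 227 doing so and 3 lost without the filter on low values, 222 and 8 with a pseudocount of 0.1, 214 and 16 after quantile normalization, and 186 and 8 when only the compared groups entered the fit. The last pair covers only genes still tested in that fit. Called genes that no longer passed the filter there are in neither number, and differences of responses were not fitted that way. No paired analysis was possible because the compared groups share no replicate numbers.

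With a pseudocount of 0.1 in place of 1, the number of HOX genes called went from 4 to 8 in H82 *STING* KO against intact cells without Dox, from 1 to 5 in H82 *N1ICD* without Dox against parental cells, from 5 to 8 with *REST* in H524 and from 11 to 17 in H524 *N1ICD* without Dox against parental cells. It went from 8 to 13 with TAS1440 against DMSO in COR-L88, from 2 to 6 between *STING* KO and intact COR-L88 with TAS1440, and from 2 to 1 with TAS1440 and GSI against DMSO in KP1, where it was also 1 with no filter. Fitting only the compared groups gave 6 in H524 *N1ICD* without Dox against parental cells and 1 in place of 0 in H524 *REST* without Dox against parental cells. Quantile normalization gave 6 between *STING* KO and intact COR-L88 with TAS1440 and 3 in place of 1 for their difference of responses.

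Leaving out single libraries, the counts ran from 1 to 2 in H82 without Dox against parental cells, 2 to 5 for the *STING* KO difference of responses in H82, 6 to 11 with *N1ICD* in H524, 3 to 5 with *REST* in H524, 0 to 1 in H524 *REST* without Dox against parental cells and 2 to 8 for the difference of responses in H524. In COR-L88 they ran from 1 to 6 between *STING* KO and intact cells with TAS1440 and from 0 to 3 for the difference of responses. In KP1 they ran from 5 to 10 with TAS1440 against DMSO, 5 to 10 against TAS1440 with GSI and 1 to 2 with both agents against DMSO. The low ends in KP1 came from fewer genes tested, since leaving out a TAS1440 library takes *Hoxa4*, *Hoxa5*, *Hoxa10* and *Hoxb13* below the filter. With the tested genes kept the first 2 ranges were 9 to 12 and 9 to 10. The same holds for members that reached 1 in a single group of H82, H524 or H69. Other causes were not tested. Depth is unknown in reads, so levels below about 1 cannot be told from 0 with a stated error.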
